A study of Mus musculus with 15 samples.

Results

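Exc_19 was one of the 26 excitatory neuron (Exc) clusters that the authors drew from single-cell RNA-seq of the mouse prefrontal cortex (PFC), and its members are the cells given that name in the deposited cell annotation. It held 1340 of the 35360 retained cells and of the 20377 cells in Exc clusters, which made it the second largest Exc cluster after Exc_25 with 1384 cells. Of its cells, 894 came from the 12 adult libraries (P60) and 446 from the 3 libraries of young mice (P21). A further deposited column of broad cell types called 1323 of the 1340 cells excitatory, and the other cells were almost all from P21: 7 endothelial cells, 4 microglia, 2 astrocytes and 3 cells of the oligodendrocyte lineage, beside 1 inhibitory neuron at P60.

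The study asked how cell types of the PFC differ between early life and adulthood and after cocaine taking. All mice were male C57BL/6N. The adults, 8 to 10 weeks old by the labels, had lever-pressed for intravenous cocaine or for saline (intravenous self-administration, IVSA) and were taken in the maintenance phase, after 48 h of withdrawal or after 15 days of withdrawal, with 2 libraries for each of the 6 groups and 2 pooled mice per library. The P21 mice were 3 weeks old and untreated, and the methods give 4 of them with 2 pooled per replicate, which does not account for 3 libraries, so that some of them may share mice. Saline mice went through the same surgery, food training and lever sessions, which the cocaine mice therefore share with them. The sample titles, the source field and the methods give the PFC as the tissue, while another label field gives the nucleus accumbens (NAc). Levels are given in CPM, the UMIs of a gene relative to all those of the library's cells in question, on the usual scale. Of a list of 7 genes for striatal projection neurons, the receptor genes Drd2, Adora2a and Gpr6 and the enkephalin gene Penk had mean levels of 0.09, 0.64, 0.23 and 0.73 CPM in Exc_19 at P60. The signalling genes Ppp1r1b (147 CPM) and Rgs9 (35.0 CPM) were second and first among the Exc clusters, and the list summed to 185 CPM (rank 5) against 71.9 CPM in the mean of the others. Which label field is right was not tested.

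Layer 6 corticothalamic neurons are glutamatergic cells at the base of the cortex that send their axons to the thalamus, which in turn drives the cortex. In the PFC their main partners are the mediodorsal and neighbouring midline nuclei. They are usually recognised by the transcription factors Foxp2, Tbr1 and Tle4 together with the synaptic vesicle protein gene Syt6 and the cell cycle inhibitor gene Rprm. Layer 6b cells, the remnant of the embryonic subplate, lie just beneath them and are marked by Cplx3, Ctgf and Nxph4.

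The adult libraries held 1055 to 3784 retained cells and the P21 libraries 2791 to 4439. Exc_19 contributed 13 to 208 cells to an adult library (median 58) and 136 to 157 to a P21 library, and these cells together held 153611 to 2320427 unique molecular identifiers (UMIs, each a counted mRNA molecule) per adult library and 1075952 to 1503115 per P21 library. The 2 maintenance libraries with 13 Exc_19 cells, saline replicate 1 and cocaine replicate 1, were the thinnest. P21 replicate 1 stood apart from replicates 2 and 3: the chi-square of the Exc_19 UMIs was 6.38 and 5.79 per gene against those libraries, and 1.47 between them, where 1.44 to 2.35 separated the adult pairs. In all, 747 cell barcodes occurred in more than one library. They marked 65 Exc_19 cells (4.85%), close to the 4.26% over all cells, and 2 of these barcodes named an Exc_19 cell in both libraries.

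The genes of layer 6 corticothalamic neurons marked Exc_19. Their summed level over 12 genes was 3998 ± 322 CPM (SD, n = 12 P60 libraries), the highest of the 26 Exc clusters, where the other clusters had a mean of 604 CPM. Only Exc_20 (3928 ± 291, n = 8) and Exc_18 (3152 ± 179, n = 7) came near, and Exc_21 followed with 1744 ± 135 CPM. Saline libraries lay between 3679 and 4715 CPM, cocaine libraries between 3519 and 4284, and P21 libraries between 4181 and 4999. The clusters were drawn by the authors from these same genes, so the levels describe Exc_19 and were not tested. On its own markers Exc_19 is called layer 6 corticothalamic-like here.

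**Figure D1:**
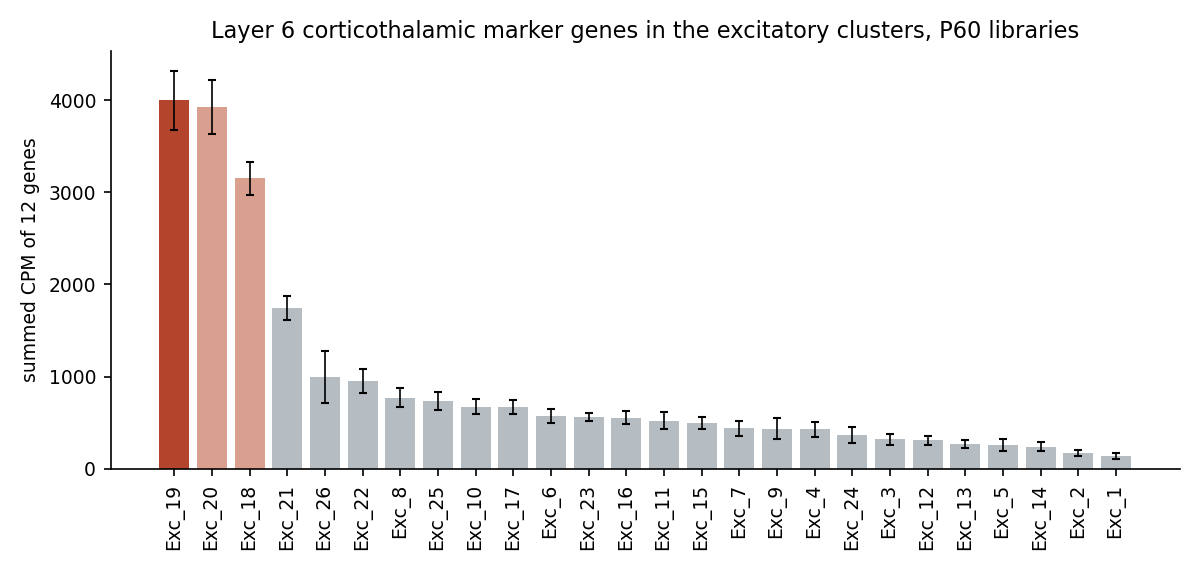
Summed CPM of the 12 layer 6 corticothalamic marker genes in each of the 26 Exc clusters (bars, means over P60 libraries, error bars SD). Exc_19, Exc_20 and Exc_18 stand at 3998, 3928 and 3152 CPM, and the next cluster, Exc_21, at 1744 CPM.

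Each of the 12 markers was higher in Exc_19 than in the mean of the other clusters, and 9 were among the top 3 of the 26. Rprm (ENSMUSG00000075334, NCBIM37 chromosome 2, 53936504 to 53937963, minus strand) was first among the clusters: its level ran from 1812 to 2923 CPM over the adult libraries (2212 ± 303, n = 12), against 224 CPM in the mean of the others. Foxp2 (ENSMUSG00000029563, chromosome 6, 14851349 to 15391977, plus strand) lay between 114 and 182 CPM (151 ± 20.8), second after Exc_20 with 172 CPM, and the other clusters averaged 14.7 CPM. Syt6 ran from 62.7 to 126 CPM (89.4 ± 22.3) against 8.01 CPM, also second. All 3 genes were on in every adult library, and their ranges over libraries stayed clear of the mean of the other clusters. Tle4 reached 145 ± 32.6 CPM (rank 4), Tbr1, which specifies layer 6 in the embryo, 120 ± 17.8 CPM (rank 3), and Ntsr1, the neurotensin receptor gene used to drive Cre in these cells, 8.57 ± 5.36 CPM (rank 5). Hs3st4, a heparan sulphate sulphotransferase gene, stood at 169 ± 20.3 CPM (rank 3), and Nxph3, a secreted neurexin ligand gene, at 86.2 ± 10.5 CPM (rank 2). With the pooled other Exc cells of the same library as the yardstick, 11 of the 12 genes were higher in Exc_19 in 12 of 12 libraries and Ntsr1 in 10.

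**Figure D2:**
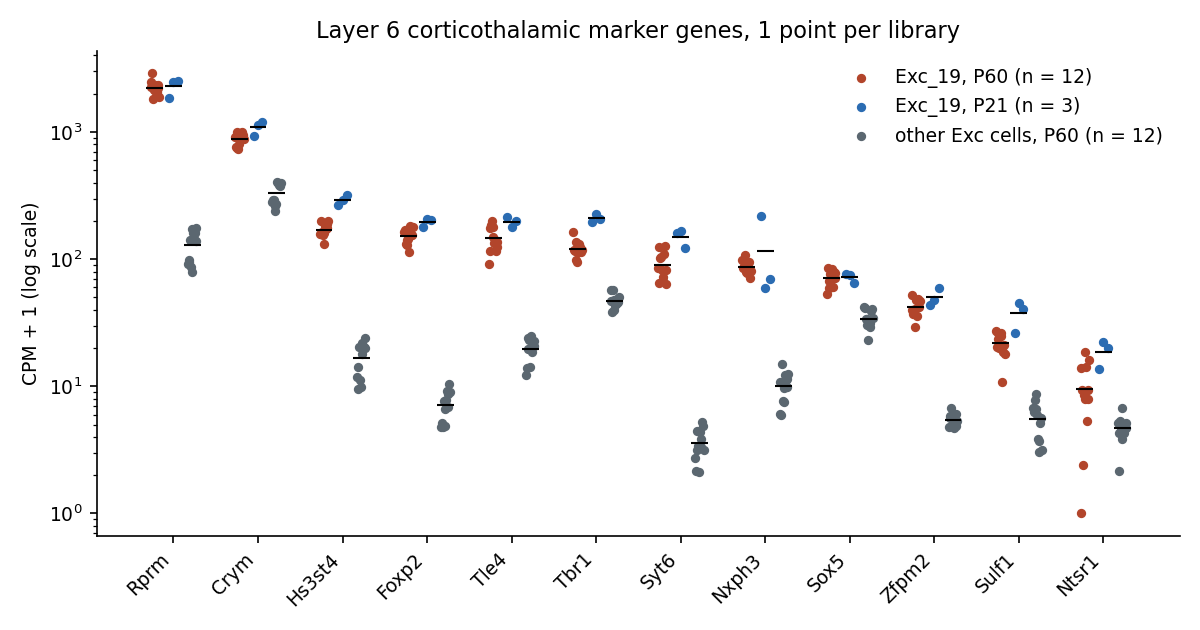
The 12 layer 6 corticothalamic marker genes (horizontal) by their level in CPM + 1 on a log axis, with 1 point per library for Exc_19 at P60 and P21 and for the pooled other Exc cells at P60, and bars at the means. Exc_19 lies above the other cells of the same libraries for each gene in 12 of 12 adult libraries, except for Ntsr1 in 10 of 12.

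Marker lists of other cell types were at mixed levels. Those of layer 6b (36.7 against 11.8 CPM in the mean of the other clusters, rank 1), layer 6 intratelencephalic (200 against 126 CPM, rank 4) and layer 5 pyramidal tract cells (185 against 70.7 CPM, rank 5) were above the mean. So were the astrocyte (1039 against 681 CPM, rank 4), endothelial (761 against 653 CPM, rank 3) and oligodendrocyte precursor lists (2.99 against 2.22 CPM, rank 4). Nnat carried most of the layer 6 intratelencephalic sum, which ran from 38.0 to 372 CPM over the saline libraries. Only 1 of the 4 genes of that list was above the mean of the other clusters. The layer 6b sum was uneven too, at 144 CPM in cocaine maintenance replicate 2, 104 CPM in saline 48 h replicate 1 and 0 to 39.1 CPM in the rest of the adult libraries. Slc1a2 and Clu carried most of the astrocyte sum (627 and 317 CPM) and Bsg most of the endothelial one (737 CPM). The defining genes Gfap, Aqp4, Cldn5 and Pecam1 were at 0.12 to 1.73 CPM. The layer 2/3 list summed to 14.3 CPM against 182 CPM in the other clusters, rank 24 of 26, and the near-projecting list to 80.0 against 153 CPM. Tshz2, the defining near-projecting gene, was at 29.0 CPM against 2099 CPM in Exc_21. Fezf2 (75.9 CPM) and Bcl11b (106 CPM), which also mark layer 5 pyramidal tract cells, were present, and Bcl6 of that list was at 0. The layer 5 intratelencephalic (136 against 280 CPM) and mature oligodendrocyte lists (91.5 against 126 CPM) were below the mean. The excitatory list was at 7587 CPM (rank 9), with the glutamate transporter gene Slc17a7 at 419 ± 68.8 CPM, while Camk2a (263 CPM, rank 24) and the calmodulin-binding Nrgn (777 CPM, rank 22) were low for an Exc cluster. The inhibitory list summed to 12.3 CPM against 9.76 CPM (rank 7). The endothelial list stood at 578 to 931 CPM in saline and 809 to 1450 CPM in P21 libraries, and the microglial list at 5.59 to 47.5 and 12.1 to 146 CPM, so both were higher in some P21 libraries.

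Detection in single cells showed the same markers. After each cell was thinned to 2000 UMIs, Foxp2 had a UMI in 22.6% of the 894 adult Exc_19 cells (exact 95% interval 19.9% to 25.5%), in 1.23% of 3000 sampled other Exc cells and in 0.3% of 3000 sampled endothelial cells, which should lack it. The median depths were 12401, 13738 and 4516 UMIs. Rprm was seen in 93.2% of Exc_19 cells against 16% and 1.67%, and Syt6 in 14.3% against 0.633% and 0.0333%. Without thinning, 73.2% of Exc_19 cells, 5.93% of other Exc cells and 0.9% of endothelial cells had a Foxp2 UMI. All such intervals cover counting error only.

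Exc_19 had no strong gene to itself within this class. Of the 5735 genes with at least 20 CPM in it, 125 were highest in Exc_19, 1 of them by more than 1.5-fold over the next cluster and 0 by more than 2-fold. The gene over 1.5-fold was Cyr61, a secreted matrix protein gene of growth factor responses, at 36.0 ± 34.7 CPM and thus uneven over the libraries (0 to 108 CPM). After thinning it had a UMI in 6.82% of Exc_19 cells, 1.33% of other Exc cells and 63.7% of endothelial cells, and the part of endothelial RNA in its level was not tested. Wnt2, a secreted Wnt ligand gene, followed at 22.8 CPM and 1.46-fold over Exc_20, and Fancd2, a DNA repair gene, at 60.4 CPM and 1.35-fold over Exc_20. By contrast, genes set Exc_19 far from the mean of the other clusters: Sla, an adaptor of antigen receptor signalling, was 11.9-fold above it (54.9 ± 14.9 CPM), the homeobox gene Sebox 11.7-fold (91.3 ± 39.1 CPM), and Sema5a, a semaphorin of axon guidance, 9.07-fold (62.5 CPM). At the other end were genes of the upper layers and of other projection classes. Cux2 was at 2.00 CPM against a mean of 60.7 CPM, Rorb at 2.26 against 70.7, the vesicular zinc transporter gene Slc30a3 at 4.11 against 171, and the calcium-binding S100a6 at 3.67 against 190.

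By its whole profile Exc_19 lay nearest to Exc_20 and Exc_18. Over 7775 genes the correlation of mean log2 levels at P60 was 0.983 with Exc_20 and 0.974 with Exc_18, and the next cluster, Exc_22, reached 0.919. The number of genes more than 2-fold apart was 161, 227 and 696. These values are across genes and share libraries, and they carry no test. At P21 the order of the first pair was the same (0.988 and 0.981).

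A minority of Exc_19 cells carried layer 6b genes, and most of these were from P21. With a UMI of 2 or more of Cplx3, Ctgf, Nxph4 and Moxd1 counted as carrying them, 31 cells qualified (2.31%), of which 24 were from P21. The P21 libraries held 9, 7 and 8 of them (5.73%, 5.15% and 5.23% of their Exc_19 cells), and the adult libraries 0 to 2 (0% to 3.03%). The groups do not overlap, and the P21 cells were the shallower ones, with a median of 9154.5 UMIs against 12354 at P60 among the cells without these genes. At P21 such cells were 5.38% of Exc_19 over its libraries, 6.87% of Exc_20, 2.13% of Exc_18, 0.966% of all other Exc cells together and 0.0489% of endothelial cells. At P60 they were 0.783% of Exc_19, 0.0738% of the other Exc cells and 0.0561% of endothelial cells, with 0 of 175 cells in Exc_20 and 0 of 246 in Exc_18, which allows shares of up to 1.71% and 1.22%.

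In these 31 cells Cplx3, a complexin gene known from the retina and the subplate, was at 899 CPM by pooled UMIs against 9.8 CPM in the rest of Exc_19. Genes that were not used to pick them differed too. Nr4a2, a nuclear receptor of the subplate and claustrum, stood at 134 against 15.8 CPM, the potassium channel subunit gene Kcnab1 at 122 against 8.1 CPM, and Igfbp5 at 259 against 24.2 CPM. Rprm was at 242 against 2258 CPM, Foxp2 at 65.5 against 164 CPM and Crym at 287 against 983 CPM, whereas Tle4 (248 against 152 CPM), Hs3st4 (322 against 202 CPM) and Slc17a7 (769 against 440 CPM) were the higher in them. The P21 share is larger among the 31 cells than in the rest, so the same was computed within P21: Rprm stood at 103 against 2392 CPM, Foxp2 at 53.6 against 204, Tle4 at 284 against 193, Hs3st4 at 350.4 against 286 and Slc17a7 at 816 against 499. These are sums over cells chosen after their values were seen and carry no test.

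The share of Exc_19 among Exc cells varied widely between libraries and did not differ beyond that spread. It ran from 2.28% (cocaine maintenance replicate 1) to 9.51% (cocaine maintenance replicate 2) over the adult libraries. Saline libraries averaged 6.08% ± 2.21 and cocaine libraries 5.78% ± 3.05 (SD, n = 6 each), and the difference, averaged over phases, was -0.299 percentage points (exact permutation within phases, two-sided p = 0.852, all 216 regroupings). It was positive at maintenance (1.35 points) and at 15 d (0.207) and negative at 48 h (-2.45). P21 libraries held 6.33%, 8.78% and 8.04%, against 6.08% ± 2.21 in the saline libraries, a difference of -1.64 points for P60 minus P21 (exact permutation over 84 splits, two-sided p = 0.31). P21 cells received their cluster by their likeness to adult clusters, and the sister clusters differed in the same respect: Exc_18 made up 4.65% to 7.70% of the P21 Exc cells and 0.39% to 2.86% of the adult ones, and Exc_20 8.02% to 8.77% against 0% to 2.08%.

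Exc_19 cells held somewhat fewer UMIs than other Exc cells of the same library. The median per cell was 0.912 times that of the other Exc cells on average over the 12 adult libraries (log2 ratio -0.134, exact sign-flip permutation p = 0.00244, lower in 10 of 12, range 0.811 to 1.02). Against the cells of Exc_18 and Exc_20 the log2 ratio was 0.0475 (exact sign-flip permutation p = 0.188). The mitochondrial share of UMIs was lower by 0.250 percentage points on average (exact sign-flip permutation p = 0.000488, the smallest that 4096 sign patterns allow, lower in 12 of 12, from -0.415 to -0.0347 points).

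Between P21 and saline adult mice a large part of the Exc_19 profile differed. Surgery, food training and lever sessions were had only by the adults, so age cannot be told apart from them here. In the UMI sums of the 3 P21 and 6 saline P60 libraries, edgeR's quasi-likelihood test called 1297 of 8570 genes (15.1%) at an adjusted p below 0.05 and more than 1.5-fold: 538 were higher at P60 (6.28%) and 759 lower (8.86%). Values below are log2 changes for P60 minus P21 with standard errors, and adjusted p-values are those of edgeR over all genes tested. The median over all genes tested was -0.01. With the same number of cells drawn from each library 258 genes were called, and with the 2 saline 15 d libraries as the only adults 406. With P21 replicates 2 and 3, which may share mice, summed as 1 sample the count was 1100, of which 1052 were shared. The clustering used the P60 cells, and the P21 cells were matched to it, so that these counts concern the cells so matched.

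Many genes of growing axons fell. Of 24 tested growth cone and immature cytoskeleton genes 10 were lower at P60 (8.86% of all genes were) and 0 higher, with a median change of -0.46. Marcksl1, an actin-binding kinase substrate of outgrowing neurites, was at 74.5, 96.7 and 80.2 CPM in the P21 libraries and at 0 to 19 CPM (median 5.0) in the saline adults. Its change was -3.19 ± 0.30 (adjusted p = 1.1e-06), and the ages do not overlap. Its relative Marcks went from 226, 226 and 255 CPM to 86.9 to 122 CPM (median 110), a change of -1.09 ± 0.13. Gap43, the growth-associated protein gene, remained abundant: 1968, 3092 and 3226 CPM at P21 and 1253 to 1665 CPM (median 1597) in adults, a change of -0.77 ± 0.13. The tubulin gene Tubb2b (-1.61), the profilin gene Pfn1 (-2.07), Dpysl5 (-1.21) and Stmn2 (-0.66) fell as well. Of 7 neurofilament and microtubule-associated protein genes tested 0 passed in either direction (edgeR; median 0.07), and Mapt, the tau gene, changed by 0.36 (adjusted p = 0.027), under the 1.5-fold limit.

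Among called genes whose ages do not overlap the falls were led by Sparc. This gene (chromosome 11, 55208002 to 55233582, minus strand), a matrix protein gene of glia and vessels, was at 63.9, 51.1 and 47.9 CPM in the P21 libraries and at 0 to 3.0 CPM (median 1.9) in saline adults, a change of -4.41 ± 0.30 (adjusted p = 1.6e-10). Cldn5, the tight junction gene of endothelial cells, was at 75.2, 12.1 and 9.9 CPM and fell to 0 to 3.8 CPM (-4.26 ± 1.05, adjusted p = 0.024). It is one of 3 endothelial genes called lower among the 4 tested, with Flt1 (-2.99) and Itm2a. When the cells typed otherwise than excitatory were left out, Cldn5 and Flt1 were too low to be tested and Sparc was lower by 2.72 (adjusted p = 4.9e-05). Without these cells 1252 genes were called over all, 1198 of them shared with the 1297.

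Among the largest rises was a gene near 0 at P21. Spink8 (chromosome 9, 109714794 to 109729147, plus strand), a protease inhibitor gene, had 1 UMI over the 3 P21 libraries and 46 over the saline adults, a ratio of 34.5 with a counting interval of 5.9 to 1393. Its adult levels were 4.30 to 11.6 CPM (median 8.54), and the fitted change was 4.56 ± 0.80 (adjusted p = 0.00025). Igfbp6, an insulin-like growth factor binding protein gene, was at 28.6, 5.58 and 5.78 CPM at P21 and 47.5 to 92.2 CPM (median 81.6) in adults, a change of 2.46 ± 0.44. Fancd2, one of the leading genes of Exc_19, rose from 39.3, 30.7 and 35.5 CPM to 44.7 to 77.5 CPM (0.89 ± 0.18).

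**Figure D3:**
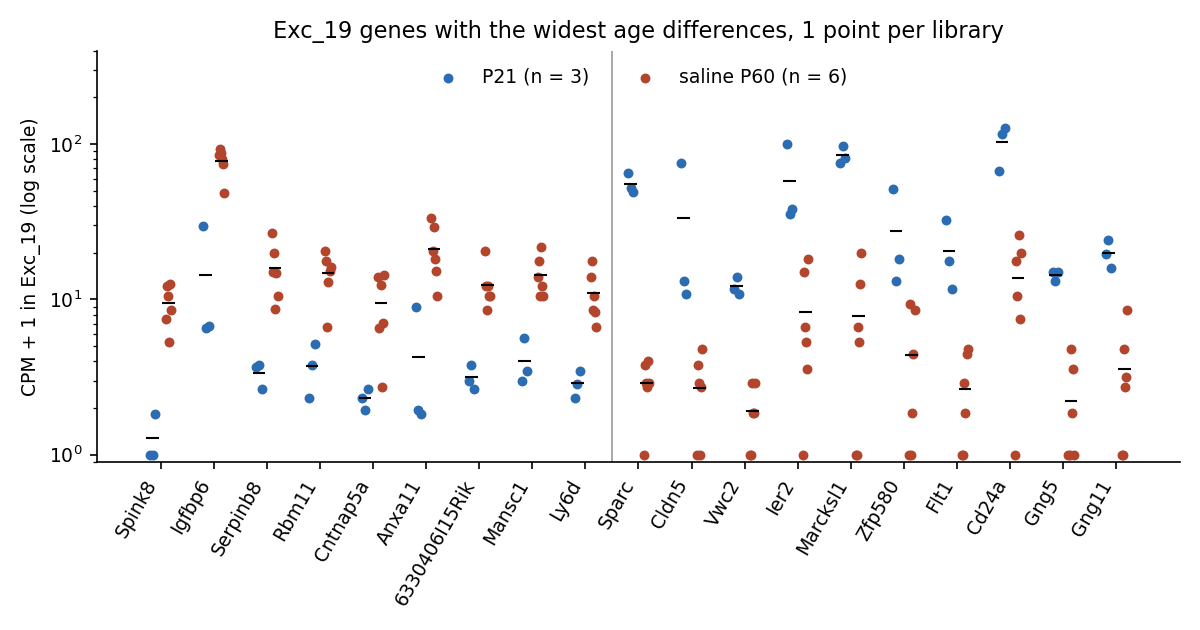
The 9 genes shown of the 10 with the largest rise (left of the line) and the 10 with the largest fall (right) between P21 and saline P60 in Exc_19, in CPM + 1 on a log axis, with 1 point per library and bars at the means. The libraries of the 2 ages do not overlap for any of them, which is part of how they were chosen.

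Immediate early genes, which neurons transcribe within minutes of activity, had more members lower than higher in adults. Of 19 tested 8 fell, 1 rose and 10 passed in neither direction, with a median of -0.71, where 8.86% of all genes fell. Junb stood at 308, 155 and 126 CPM at P21 and at 22 to 112 CPM (median 29.0) in saline adults (-2.06 ± 0.58, adjusted p = 0.043), and Ier2 at 99.8, 34.4 and 37.2 CPM against 0 to 17.1 CPM (-3.24 ± 0.62). Nr4a1 (-0.71), Nr4a3 (-1.86), Dusp1 (-1.09) and Btg2 (-1.04) fell too. So did Nr4a2, which is also in the deep-layer transcription factor list and was higher in the layer 6b cells (132 against 20.6 CPM at P21). Bdnf, the neurotrophin gene, was the one that rose: from 11.3, 16.7 and 14.9 CPM to 8.4 to 39.9 CPM (median 30.6), a change of 1.13 ± 0.28 (adjusted p = 0.0053). Its lowest adult library lies under the P21 ones. Junb and Ier2 were highest in P21 replicate 1.

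Several identity genes were at lower levels in adults. P21 cells were named by their likeness to the adult clusters, so that they held these genes was set by that step. Of the 12 corticothalamic markers 5 were lower in adults (8.86% of all genes were) and 0 higher, with a median of -0.46. Tbr1 went from 196, 225 and 207 CPM to 96.8 to 118 CPM (median 114), a change of -0.84 ± 0.13 (adjusted p = 5.2e-05). Syt6 was at 160, 165 and 122 CPM and then at 62.7 to 123 CPM (-0.83 ± 0.16), Hs3st4 at 267, 293 and 318 CPM and then at 154 to 200 CPM (-0.67 ± 0.12). Sulf1 (-0.71) and Ntsr1 (-1.07) were the other called ones. Foxp2 changed by -0.39 (adjusted p = 0.041), under the fold limit, and Rprm by 0.09 (adjusted p = 0.70), Tle4 by -0.37 and Crym by -0.23 without a call. Nxph3 was at 216 CPM in P21 replicate 1 but at 58.6 and 69.4 CPM in the other two, around the adult 69.8 to 86.6 CPM. Among 23 deep-layer transcription factor genes tested, 4 were lower, Nr4a2, Tbr1 and Fezf2 among them, and 0 higher, with a median of -0.20. Nr4a2 was also a gene of the layer 6b cells, at 132 CPM in them at P21 against 20.6 CPM in the rest of Exc_19. Fezf2, a subcerebral determinant, was lower by 0.81.

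Receptors for the cortical modulators moved in both directions. Of 17 tested neuromodulator and peptide receptor genes 2 rose and 6 fell (median -0.10), where 6.28% of all genes rose and 8.86% fell. Drd1a, the dopamine D1 receptor gene, was at 28.6, 24.2 and 30.6 CPM at P21 and at 2.79 to 20.9 CPM (median 10.9) in saline adults, a change of -1.21 ± 0.28 (adjusted p = 0.0030) with no overlap. Among the adrenergic receptors Adra1b (-1.27) and Adra2a (-1.23) fell while Adra1a rose from 5.99, 6.51 and 6.61 CPM to 12.1 to 19 CPM (1.22 ± 0.33, adjusted p = 0.010). Cnr1, the cannabinoid receptor gene, rose from 8.65, 3.72 and 5.78 CPM to 7.75 to 32.3 CPM (1.44 ± 0.40), with overlap. The nicotinic subunit gene Chrna4 (-0.75) and the somatostatin receptor gene Sstr1 (-0.92) were lower.

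Among fast transmission genes edgeR called 0 of 20 glutamate receptor genes tested (median 0.00) and 5 of 12 GABA receptor genes, against 15.1% of all genes. The most abundant glutamate receptor genes gave 0.30 for Gria2 (adjusted p = 0.060), 0.33 for Gria1 and 0.24 for Grin2b. The GABA receptor list of 12 tested genes had 3 higher, among them Gabra4 (0.61) and the extrasynaptic Gabrd (0.59), and 2 lower, Gabrg3 (-0.84) and Gabrb2 (-0.65). In the vesicle release list of 24, Cplx2 (0.64) and Syt4 (0.60) rose and the synapsin gene Syn1 (-0.64) fell. The kinase gene Camk2a rose from 184, 98.5 and 145 CPM to 173 to 388 CPM (0.85 ± 0.23). Among 33 potassium channel genes 0 rose and 3 fell (Kcnn1, -1.3, Kcnab1, -1.29, and Kcnk1, -0.65), and among 19 sodium and calcium channel genes Scn1a (0.90) and Cacng3 (0.81) rose and Scn3b (-0.60) fell. Kcnab1 was a gene of the layer 6b cells, and without those cells its change was -0.62 (adjusted p = 0.25).

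For the remaining lists the shares to set the counts against are 6.28% of all genes higher and 8.86% lower. Axon guidance genes gave 0 higher and 2 lower of 30 (Sema5a, -0.84, and the ephrin gene Efnb3, -0.72). Nuclear oxidative phosphorylation genes gave 6 higher and 5 lower of 78 with a median of 0.21. Uqcrc1 of complex III rose from 391, 354 and 382 CPM to 500 to 676 CPM (0.77 ± 0.13), and Cox5a of complex IV, at 1220, 524 and 457 CPM and then 84.0 to 281 CPM, fell by 2.23. Heat shock genes gave 3 higher (Stip1, 0.92, Hsp90aa1, 0.76, Hsp90ab1, 0.64) and 1 lower (Fkbp4, -0.59) of 18. Chromatin genes gave 2 higher and 6 lower of 31. Dnmt3a, a de novo DNA methyltransferase gene, went from 71.9, 124 and 121 CPM to 33.6 to 53.1 CPM (-1.18 ± 0.18, adjusted p = 7.9e-05), and Tet1, which oxidises methylcytosine, from 18.6, 26.0 and 33.9 to 2.79 to 11.4 CPM (-1.97 ± 0.32). Secreted peptide genes gave 2 higher (the granins Chgb, 0.82, and Scg5, 0.69) and 2 lower (Sst, -1.47, and Igf1, -1.46) of 15.

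Most of these changes had the same direction in other cells of the same libraries. The 538 genes higher in adult Exc_19 had a median change of 0.80 there, 0.579 in the other Exc cells (260 of the 538 called higher) and 0.397 in non-neuronal cells (36 of 514 tested). The 759 lower genes had medians of -0.931, -0.667 (447 of 758) and -0.457 (163 of 722). The share of all genes called was 15.1%, 19.2% and 6.84% in these 3 sets of cells, which differ in depth.

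A direct test of the difference in age response between Exc_19 and the other Exc cells, with the library as a block, called 237 of 11532 genes (2.06%): 128 in which Exc_19 moved up relative to the others (1.11%) and 109 in which it moved down (0.945%). DESeq2 called 103. Here a value is the log2 change in Exc_19 minus that in the other Exc cells. The pool of other cells itself changed, since Exc_18 and Exc_20 made up more of it at P21. The corticothalamic list shows this. Foxp2 stood at 23.9 to 33.7 CPM in the other Exc cells at P21 and at 3.79 to 9.5 CPM in the saline adults. For 7 of the 12 markers the age response was called higher in Exc_19 (Syt6 2.01, Rprm 1.72, Foxp2 1.57). With equal weight for each other cluster, or without Exc_18 and Exc_20, 0 of the 12 were called in either direction, and Foxp2 gave 0.19 and 0.56.

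**Figure D4:**
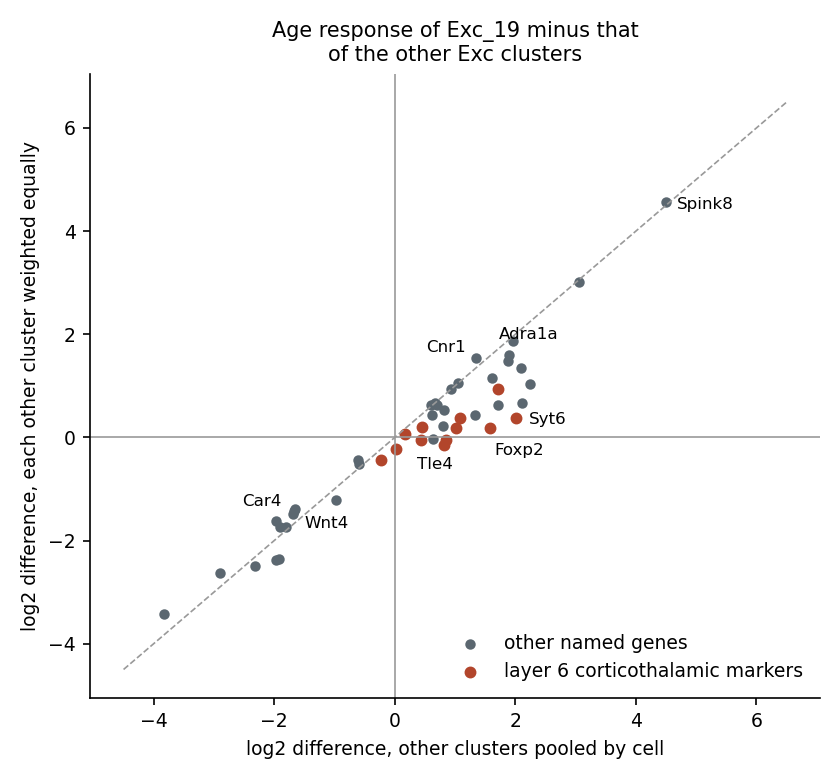
Log2 difference between the age response of Exc_19 and that of the other Exc clusters for named genes, with the other clusters pooled by cell (horizontal) and with equal weight for each (vertical), where the dashed line marks equal values. The corticothalamic markers run from -0.44 to 0.93 on the vertical axis with a median of 0.13, Foxp2 at 0.19 against 1.57 on the horizontal one, while Spink8 and Adra1a stay near the line.

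Of the 237 genes 110 were called in the same direction under each of 3 further choices of cells. These were equal weight for the clusters, no Exc_18 and Exc_20, and no layer 6b cells in Exc_19. The last choice left the layer 6b cells of the other clusters in, so it cannot show that calls do not depend on such cells. Of the 110 genes 53 moved up and 57 down relative to the others. Chgb was at 571, 498 and 512 CPM in Exc_19 at P21 and at 710 to 1093 CPM (median 888) in adults, while the other Exc cells were at 566 to 605 and 528 to 619 CPM, a difference of 0.70 ± 0.07 (adjusted p = 9.8e-16). Adra1a rose in Exc_19 and went from 7.95 to 9.13 CPM at P21 to 3.69 to 6.19 CPM in the others (1.90 ± 0.37, adjusted p = 1.0e-04). Bdnf was at 158 to 159 and 146 to 194 CPM in the others (1.05 ± 0.23), and Cnr1 at 107 to 161 and 113 to 175 CPM (1.35 ± 0.32), so that both remained far below them in adult Exc_19. The AMPA receptor auxiliary subunit gene Cacng3 (0.93), Scn1a (0.67), the DNA repair gene Fancd2 (1.22) and the glutamate transporter gene Slc1a1 (0.69) were further ones.

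Among the genes that moved down relative to the others, Wnt4, a secreted Wnt ligand gene, went from 18.6, 11.2 and 12.4 CPM to 0 to 5.16 CPM (median 3.41) in Exc_19, while the others were at 42.5 to 63.4 CPM and then at 30.1 to 45.1 CPM (-1.67 ± 0.38, adjusted p = 0.0013). The semaphorin receptor gene Nrp2 had a difference of -0.97 and the kinase gene Mapk3 of -0.66. Trp53i11 (-2.33) and Hpcal1 (-1.19) were also genes of the layer 6b cells. Both were called without those cells of Exc_19, with the layer 6b cells of the other clusters left in. Sema5a fell in Exc_19 by 0.84, yet its difference was 1.71 ± 0.17. The pool of other cells, with more Exc_18 and Exc_20 at P21, went from 21.2 to 28.1 CPM to 2.27 to 4.90 CPM. With each other cluster weighted equally, Exc_19 was 6.51-fold above their mean at P21 and 9.07-fold in the 12 adult libraries.

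The age response was also compared with those of the nearest neighbours. Only libraries with at least 10 cells of both clusters could enter, 3 saline libraries for Exc_18 and 4 for Exc_20. The test against Exc_18 called 23 of 8508 genes (0.27%), with 715 at an unadjusted p under 0.05. For 18 genes the age response, not the level, was higher in Exc_19 (0.212%). Among them were the gastrin-releasing peptide gene Grp (2.15), the apolipoprotein gene Apoe (2.07), the tubulin gene Tubb2b (1.83), the transcription factor gene Etv1 (1.51) and Cck (1.28). For 5 genes it was lower (0.0588%), led by Trank1 (-1.21) and Nrsn2 (-1.10). In Exc_19 itself Apoe (-1.57), Tubb2b (-1.61), Cck (-0.81) and Trank1 (-0.15) had values below 0. Grp (0.29), Etv1 (0.29) and Nrsn2 (0.39) had values above 0. The test against Exc_20 called 6 of 8578 genes (0.0699%), with 341 at an unadjusted p under 0.05: Cplx3, Tshz2, Hpcal1 (2.12), Ptn (1.58), Nrn1 (1.05) and Rgs4 (0.73). In the 89 saline Exc_20 cells Cplx3 had 0 UMIs, which allows up to 3.1 CPM, and Tshz2 had 1 (1.03 CPM), against 93 and 121 UMIs (20.5 and 26.7 CPM) in 401 Exc_19 cells. In Exc_19 both were uneven over these saline libraries. Cplx3 was at 77.8 and 2.58 CPM in 48 h replicates 1 and 2 and at 20.7 and 1.90 CPM in 15 d replicates 1 and 2. Tshz2 ran from 11.6 to 101 CPM, highest in 15 d replicate 2. Without thinning, 2.57% of all adult Exc_19 cells had a Cplx3 UMI. At P21 Cplx3 was at 136 CPM in Exc_20 and 79.7 CPM in Exc_19, and Tshz2 at 28.4 and 36.2 CPM. These tests rest on few adult cells, and few calls do not show that the responses were alike. DESeq2 called 5 and 0 genes in these tests. The count against Exc_20 was 2 without P21 replicate 1 and 3 without saline 48 h replicate 2. Of the 12 corticothalamic markers 0 were called in either test, which says little about them where 0.27% and 0.0699% of all genes were called.

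Cocaine taking gave no called gene in Exc_19 at maintenance or at 48 h. In one edgeR fit of the 12 adult libraries with a mean for each group, 0 of 7569 genes passed at maintenance (401 at an unadjusted p under 0.05) and 0 at 48 h (476), and DESeq2 called 0 in both. Values are log2 changes for cocaine minus saline. The maintenance contrast rests on 13 and 32 saline and 13 and 66 cocaine cells.

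At 15 days of withdrawal the same fit called 121 genes (1.6%), all higher in cocaine, with 491 at an unadjusted p under 0.05. The number rests on single libraries: without saline 15 d replicate 1 it was 14, without saline 15 d replicate 2 it was 241, and without cocaine replicate 1 or 2 it was 50 or 58. DESeq2 called 19, and a fit of the 4 libraries of that phase alone called 71. The contrast compares 255 saline with 274 cocaine cells.

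Rprml (chromosome 11, 103510823 to 103511894, plus strand), a relative of the corticothalamic marker Rprm, had the smallest p. It was at 62.9 and 93.1 CPM in the saline and 259 and 250 CPM in the cocaine libraries, a change of 1.83 ± 0.19 (edgeR adjusted p = 7.6e-09), and at 42.1 to 96.9 CPM in the 8 libraries of the other phases. Tm2d1, a membrane protein gene, was at 29.7 and 34.2 against 120 and 116 CPM (1.94 ± 0.21, adjusted p = 3.1e-08). Nrgn, the postsynaptic calmodulin-binding protein gene, was at 593 and 691 against 1358 and 1290 CPM (1.07 ± 0.14, adjusted p = 1.4e-06). In each of these the 2 cocaine libraries were close together and clear of the saline pair.

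The largest changes were of low genes. The ubiquitin ligase adaptor gene Fbxl15 was at 5.6 and 9.5 against 37.9 and 39.4 CPM (2.58 ± 0.38, adjusted p = 1.2e-05), Gm1673 at 5.17 and 26.6 against 73.7 and 45.9 CPM (2.53 ± 0.43) and 2310036O22Rik at 21.5 and 64.6 against 166 and 155 CPM (2.30 ± 0.26). The members of the gene groups among the 121 are given next, where 1.6% of all genes tested were called. Fezf2 was at 56.5 and 104 against 151 and 108 CPM (0.84 ± 0.22, adjusted p = 0.046), the immediate early gene Ier5 gave 1.17, the complex III genes Cyc1 and Uqcrfs1 1.60 and 0.90, and the chromatin genes Yeats4, Hmgn1 and Ube2d3 1.68, 1.15 and 0.73. Of the 12 corticothalamic markers 0 were called, which at a share of 1.6% over all genes says little about them. Syt6 was at 81.0 and 62.7 against 108 and 126 CPM (0.67 ± 0.20, adjusted p = 0.073), and Foxp2 at 153 and 179 against 182 and 153 CPM.

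The rise was not particular to Exc_19 by test. The same 121 genes had a median change of 1.08 in Exc_19, 0.873 in the other Exc cells, where 121 of 121 lay above 0 and 44 were called (of all genes there 0.857% were called), and 0.808 in non-neuronal cells, where 119 of 120 lay above 0 and 0 were called. The test of the difference between Exc_19 and the other Exc cells at 15 d called 0 of 11941 genes (edgeR; 279 at an unadjusted p under 0.05, DESeq2 0), and the 121 genes had a median difference of 0.0867. In Exc_19 their medians at maintenance and 48 h were 0.116 and 0.270.

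**Figure D5:**
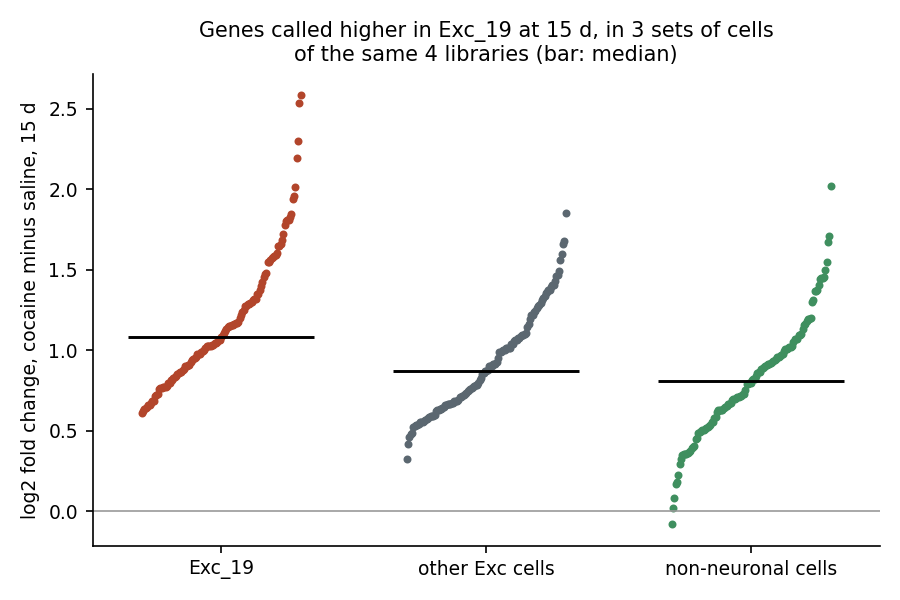
Log2 change between cocaine and saline at 15 d for the 121 genes called in Exc_19, 1 point per gene in rising order, in Exc_19, the other Exc cells and non-neuronal cells of the same 4 libraries, with bars at the medians. The medians are 1.08, 0.873 and 0.808, and 1 gene lies below 0, in the non-neuronal cells.

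The saline 15 d libraries also serve as adults in the comparison with P21. Of the 121 genes 119 were tested for age: 88 were called lower at P60 and 0 higher, with a median of -1.05. Of all genes tested 8.86% were lower. Some of the 121 genes were uneven between the P21 libraries. Rprml was at 550, 90.2 and 75.2 CPM in P21 replicates 1 to 3, Gm1673 at 277, 32.5 and 30.6 CPM and Nrgn at 1833, 708 and 706 CPM, so that replicate 1 stood above the other two, while Tm2d1 was at 197, 157 and 150 CPM. Whether a difference between libraries other than cocaine moved these genes was not tested.

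Over all phases together edgeR called 5 genes (0.0661%), all higher in cocaine: Tm2d1 (0.97), Gde1 (0.74), 2310036O22Rik (1.3), Rprml (0.70) and Rab11a (0.68). DESeq2 called 0. Without saline 15 d replicate 2 the count was 64, and without any one of the other libraries 0 to 8, with 0 for saline maintenance replicate 2 and for cocaine 48 h replicate 2. DESeq2 called 0 genes for a difference in the effect of cocaine between phases, and so did edgeR with at least 20 cells. In the main fit edgeR called 2 genes (0.0264%). They were Rprml (-0.14, 0.41 and 1.83 at maintenance, 48 h and 15 d, adjusted p = 0.0083) and Nrgn (-0.04, 0.25 and 1.07, adjusted p = 0.023). Without saline 15 d replicate 2 that count was 59, without any one other library it was 0 to 3, and it was 0 without cocaine maintenance replicate 2 or cocaine 15 d replicate 2. The response to cocaine differed between Exc_19 and the other Exc cells for 2 genes of 11941 (0.0167%), the GTPase-activating protein gene Arhgap32 (0.59, adjusted p = 0.0012) and the adhesion gene Flrt2 (0.74, adjusted p = 0.016). DESeq2 called 0 there, and leaving out 1 library gave 0 to 4, with 0 for saline maintenance replicate 2 and for cocaine 15 d replicate 2.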

How the data were processed

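Cells of the PFC were counted in 15 droplet libraries, 12 at P60 and 3 at P21. The authors aligned reads to the mouse genome mm9 (NCBIM37) with Ensembl genes, counted UMIs with Cell Ranger, clustered the P60 cells with Seurat 2.1.0 (per the labels) and named the P21 cells by their correlation with P60 clusters. The deposited values are raw UMI counts per gene and cell. A deposited annotation lists the cluster and broad type of every retained cell and its mitochondrial fraction, which the authors gave as a fraction and which is printed here as a percent. Gene positions come from the annotation of the same build, and all 292 named genes matched by identifier.

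The tables were handled in Python 3.11.15 (pandas 2.3.3, numpy 2.4.6, scipy 1.17.1; figures in matplotlib 3.10.9). Of 26145 gene rows, CPM and tests used 25988, without 13 mitochondrial genes and 144 of ribosomal proteins, and 304 rows share a symbol with another row and are kept by identifier. UMIs of Exc_19 were summed per library. CPM are relative to the kept genes, and means and SDs are over libraries. A library needed at least 10 cells of each set compared. Tests were quasi-likelihood F tests (robust, TMM scaling, filterByExpr) of edgeR 4.0.16 in R 4.3.3, with a call at a Benjamini-Hochberg adjusted p under 0.05 and over 1.5-fold. Interactions with other cells had the library as a block. Shares and qualities of cells were compared by exact two-sided permutation. Levels against other clusters are descriptions, since these genes made the clusters. The methods describe the 12 adult libraries as independent replicates, each from its own pool of 2 mice. For the 3 P21 libraries this is not clear, and p-values there may measure a spread that is partly technical. Doublets were not called here. The authors removed cells with very many genes and assessed doublets by hand after clustering. For detection each cell was thinned to 2000 UMIs and for variance between cells to 5000 UMIs. The test was tried on simulated data first.

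The cluster, the marker lists and the 15 gene groups were chosen with earlier results of these data known. Named genes are the markers, the 15 and 10 leading genes and the 8 lowest, the 10 largest rises and 10 largest falls among called genes whose groups do not overlap, the called members of each gene group (with none, up to 4 abundant members) and the 12 most variable genes. Some of them are not reported here. The layer 6b genes and the 110 genes kept over choices of cells were picked after their values were seen, and so were Fancd2, Ddah1, Uqcrc1 and Slc1a1 as age examples. Alternatives were DESeq2 1.42.0, its size factors, no filter, no fold cutoff, at least 20 cells, other sets of libraries or cells, all genes kept, and each library left out. Added after seeing the data were P21 replicates 2 and 3 summed, and other clusters without Exc_18 and Exc_20. So were no layer 6b cells in Exc_19, the 15 d interaction alone, and the same contrasts in other cells.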

Additional observations from a re-analysis of the deposited data

Results flagged for a closer look

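Among 37 measures over the 6 saline adult libraries, 3 had a library far from the rest, where chance gives about 1 in 20. The median UMIs per Exc_19 cell was 15136 in saline maintenance replicate 1 and 11235 to 12622.5 in the rest. Tbr1 was at 96.8 CPM in saline 48 h replicate 1 and at 112 to 118 CPM in the rest. 6330406I15Rik was at 19.4 CPM in saline maintenance replicate 1, which has 13 Exc_19 cells, and at 7.59 to 11.2 CPM in the rest.

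The age response differed between Exc_19 and the other Exc cells for 237 genes by the test of the difference. Among genes called whose libraries do not overlap between the ages in this difference, large positive values were those of Spink8 (4.50), the sulphotransferase gene Ust (3.06), Sebox (2.24), Sla (2.12), Igfbp4 (2.1), Syt6 (2.01), Aif1 (1.97), Adra1a (1.90) and the protease gene Prss23 (1.87). The largest negative values among such genes were those of Vill (-3.83), the protocadherin gene Pcdh18 (-2.90), Trp53i11 (-2.33), Pkib (-1.97), Ptgs1 (-1.97), Pcp4l1 (-1.91), Bst2 (-1.90), 6030405A18Rik (-1.80), the carbonic anhydrase gene Car4 (-1.70) and Wnt4 (-1.67). These values are against the other clusters pooled by cell. Of the genes named, Sebox, Sla, Igfbp4, Syt6, Vill, Pcdh18 and Bst2 lost the call under at least 1 of 3 other choices of cells. The rest kept it under all 3. Those choices were equal weight for the clusters, no Exc_18 and Exc_20, and no layer 6b cells in Exc_19. In Exc_19 Vill rested on 6 UMIs at P21 and 2 in the saline adults, a P21 to P60 ratio of 4.00 (counting interval 0.715 to 40.5), and Pcdh18 on 18 and 3, a ratio of 7.99 (2.33 to 42.4). Spink8 rested on 1 UMI at P21 and 46 in the saline adults. Its level in Exc_19 lay on average below that of the other Exc cells at both ages. The mean log2 ratio of CPM + 1 was -2.99 at P21 and -0.75 in the saline adults.

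Against Exc_18 the age response differed for 23 genes. These values are differences in age response and not in level. Genes with the higher response in Exc_19 included Tshz2 (2.74, with 6 UMIs in the adult Exc_18 cells). Among genes without overlap between the ages, the higher responses were led by Zfp101 (2.38), Grp (2.15), Apoe (2.07), Tubb2b (1.83), A830009L08Rik (1.77), Tmem91 (1.62), Etv1 (1.51), Sebox (1.37), Cck (1.28) and 2610017I09Rik (1.18). The 5 genes with the lower response were Trank1 (-1.21), Nrsn2 (-1.10), Wasl (-0.91), the protein kinase A gene Prkaca (-0.88) and Efhd2 (-0.67). Apoe and Cck were uneven within groups: in Exc_19 Apoe was at 88.5, 13.9 and 19 CPM in the P21 libraries, and Cck at 255, 35.3 and 35.5 CPM, with replicate 1 the highest for both.

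Against Exc_20 the age response differed for 6 genes, Cplx3 (8.13), Tshz2 (4.14), Hpcal1 (2.12), the growth factor gene Ptn (1.58), Nrn1 (1.05) and Rgs4 (0.73). The fitted values of Cplx3 and Tshz2 rest on 0 and 1 UMIs in the adult Exc_20 cells and give no size. Layer 6b cells, which carry Cplx3 and Hpcal1, made up 6.87% of Exc_20 and 5.38% of Exc_19 at P21, and 0% and 0.783% at P60. Without such cells of Exc_19, and with those of Exc_20 left in, the count was 6, and all 6 genes were shared.

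Between phases the effect of cocaine differed for 2 genes, Nrgn (adjusted p = 0.0232, edgeR) and Rprml (adjusted p = 0.00828, edgeR). Neither was called by DESeq2 or with at least 20 cells. Between Exc_19 and the other Exc cells the effect of cocaine differed by edgeR for 2 genes, Arhgap32 (0.59) and Flrt2 (0.74). DESeq2 called neither of them.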

How the results depend on the processing

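Counts of called genes moved with the processing. With DESeq2 the counts were 19 at 15 d, 0 over all phases, 0 for the interaction of cocaine with phase, 103 and 5 for the age response against the other clusters and Exc_18, 0 against Exc_20 and 0 for the cocaine response against the other clusters. Without a filter on low counts they were 1 at 48 h, 182 at 15 d, 31 over all phases, 14 for the interaction and 36 against Exc_18. With at least 20 cells they were 38 over all phases, 0 for the interaction and 1 for the cocaine response against the other clusters. Without the fold limit they were 392 and 35 for the age response against the other clusters and Exc_18. Without the layer 6b cells of Exc_19 the count was 15 against Exc_18. Libraries of the phase alone gave 1 at 48 h and 71 at 15 d, and phase as an additive term 37 over all phases. The age count of 1297 became 406 with the saline 15 d libraries alone and 258 with equal numbers of cells, both with fewer libraries or cells by construction. It was 978 with DESeq2, of which 957 are shared. The UMIs of Exc_19 cells against those of Exc_18 and Exc_20 gave a log2 ratio of 0.0475. The cause of the other moves was not tested.

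Leaving out each library in turn gave 1010 to 1389 genes for age, 0 to 0 at maintenance and at 48 h, 14 to 241 at 15 d, 0 to 64 over all phases, 0 to 59 for the interaction, 200 to 256, 16 to 28 and 2 to 6 for the age response against the other clusters, Exc_18 and Exc_20, 0 to 4 for the cocaine response against the others and 0 to 1 for that at 15 d. The share of Exc_19 moved between -1.50 and 0.906 points for cocaine minus saline and between -2.33 and -1.09 for P60 minus P21, and the log2 ratio of UMIs between -0.149 and -0.118.

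Of 101 genes named for age, 1740 alternative values kept direction and call, 238 lost the call, 3 gained it and 7 changed direction. The age change of Rprm was -0.14 with the saline 15 d libraries alone and -0.00095 without layer 6b cells, and that of Sox5 -0.39 with equal cells. Leaving out a library moved Rprm between -0.0697 (P21 replicate 1) and 0.154, Zfpm2 between -0.249 and 0.0162 (P21 replicate 3) and Nxph3 between -0.831 and 0.293 (P21 replicate 1). In the age response against the other clusters, equal weight gave -0.0456 for Tle4, -0.0221 for Bcl11b, -0.0456 for Sulf1, -0.14 for Nxph3 and -0.23 for Tbr1. Without Exc_18 and Exc_20 Tbr1 was at -0.29 and Crym at -0.0659, and without the layer 6b cells of Exc_19 Tbr1 at -0.0125. Leaving out a library moved Tbr1 between -0.0106 (saline 48 h replicate 2) and 0.0867 and Ntsr1 between -0.433 and 0.0811 (saline 15 d replicate 1). The 17 genes named at 15 d lost the call in 41 of their alternative values and changed direction in 0. They were named because they were called, the largest rises also because their groups do not overlap, so few changes of direction could occur.

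No paired analysis was possible because the adult libraries are numbered on from 1 to 12 over all groups, and the numbers that P21 shares with saline adults belong to different mice. A minimum of 20 cells left no pair at maintenance and no fit against Exc_20. Each maintenance group holds a library with 13 Exc_19 cells, and the count there was 0 without either.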

Other observations

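Between cells of one library the genes that varied most in Exc_19, as the ratio of variance to mean after thinning to 5000 UMIs, were led by nuclear RNAs and a haemoglobin gene. Over 13 libraries the median ratio was 35.3 for the nuclear RNA Malat1 (19.3 to 93.4 over libraries), 21.1 for the haemoglobin gene Hba-a1 (0.857 to 131), whose reads a near-identical copy can share, 8.07 for the nuclear RNA Meg3 (3.33 to 10.9), and 6.55 for the imprinted gene Nnat (0.915 to 12.4), where the median of 5439 genes was 1. Among neuronal genes Pcp4, a calmodulin regulator, had 6.30, Tshz2 4.17 and Rprm, the marker that led the cluster, 3.56. Nnat, listed for layer 6 intratelencephalic cells, was also uneven between libraries, at 192 ± 122 CPM (SD, n = 12).

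Several of the genes that lead Exc_19 among the clusters moved between the ages. Ddah1, which breaks down an inhibitor of nitric oxide synthesis, was at 213, 195 and 188 CPM at P21 and at 49.4 to 71.0 CPM (median 60.4) in saline adults, a change of -1.72 ± 0.14 (edgeR adjusted p = 4.3e-09), and 5.67-fold above the mean of the other clusters in adults. Aif1, known from microglia, was at 14.6, 8.36 and 4.13 CPM and then at 18.1 to 43.0 CPM (1.68 ± 0.37, edgeR adjusted p = 0.0025), while the microglial list as a whole was at 12.1 to 146 CPM at P21 and 5.59 to 47.5 CPM in the saline adults. Wnt2 was at 24.0, 24.2 and 28.9 CPM and at 11.4 to 39.1 CPM, without a call.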
